A study of Mus musculus with 24 samples.

Results

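The progestin and adiponectin receptor (PAQR) family was followed in the mouse hippocampus through 9 genes, *Paqr3* to *Paqr9*, *Adipor1* and *Adipor2*, of 23787 genes that could be named on the arrays. They were found by the transcript identifier of each probe and are measured by 17 of 56605 probes. The family was selected on the measured log2 ratios of *Paqr5*, which were positive at the first time point and negative at the last, so the values of *Paqr5* are a description without a test. The other 8 genes belong to the list by family membership and were tested. Hippocampal RNA of 48 male Swiss-Webster mice was compared on 24 two-color arrays on 3 slides, without pooling. The mice were about 12 weeks old when moved to single cages, and stayed there for 3 weeks before the treatment. Corticosterone-treated animals drank water with 100 µg/ml corticosterone and 0.45% hydroxypropyl-β-cyclodextrin during the 12 h of the dark phase. Control animals, brothers of the treated, drank the vehicle. The paper states that each group held animals of several litters. The sample labels do not give the litter, so the test counts brothers as separate animals. Any difference of litters between the hours cannot be told apart from that of time. The hippocampi were collected during the first, the fifth or the ninth hour of the following light phase, with 8 control and 8 corticosterone-treated animals at each hour. Each array held 1 control animal labelled with Cy3 and 1 corticosterone-treated animal labelled with Cy5, and no array had the dyes exchanged, so that a constant dye difference of a probe is part of each comparison with control animals and cancels only between hours.

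Proteins of this family span the membrane several times. *Paqr5* to *Paqr9* encode membrane progestin receptors, which bind progesterone and neurosteroids and signal within minutes, apart from the nuclear progesterone receptor. *Adipor1* and *Adipor2* encode the receptors of the fat hormone adiponectin, which act through AMP-activated kinase and the nuclear receptor Ppara and carry ceramidase activity, and *Paqr3* encodes a Golgi protein that holds Raf kinase and the sterol sensor Scap.

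*Paqr5*, the gamma form of the membrane progestin receptors, had 1 probe, which was well above background in both channels of all 24 arrays. During the first hour, its normalized signal intensity ranged from 105 to 195 (median 148) in 8 control and from 145 to 519 (median 277) in 8 treated animals. Of the treated animals, 6 lay above the highest control, and the other 2 lay among the controls. During the fifth hour, the signal was 117 to 187 (median 150) in control and 106 to 375 (median 199) in treated animals, and 5 treated animals lay above all controls. During the ninth hour, it was 135 to 256 (median 220) in control and 117 to 161 (median 133) in treated animals, and 6 controls lay above all treated animals. The treated animal was thus the brighter one on 8 of 8 arrays, then on 7 of 8, and in the last hour on 0 of 8. The mean log2 ratios were 0.85 (SE 0.162), 0.46 and -0.55, a 1.80-fold higher signal at first and a change of -31.7% at the end. Among control animals alone, the signal of the ninth hour was higher than that of the first by 0.42 on the log2 scale, and among treated animals it was different by -0.98; neither was tested. At the fifth hour the mean rested on slide 1, where 2 arrays averaged 1.20, and it was 0.22 without them, while the 3 arrays of slide 2 and the 3 of slide 3 averaged 0.24 and 0.19. Within slides, the first hour gave 0.37, 0.78 and 1.23 and the ninth hour -0.52, -0.26 and -0.89.

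**Figure D1:**
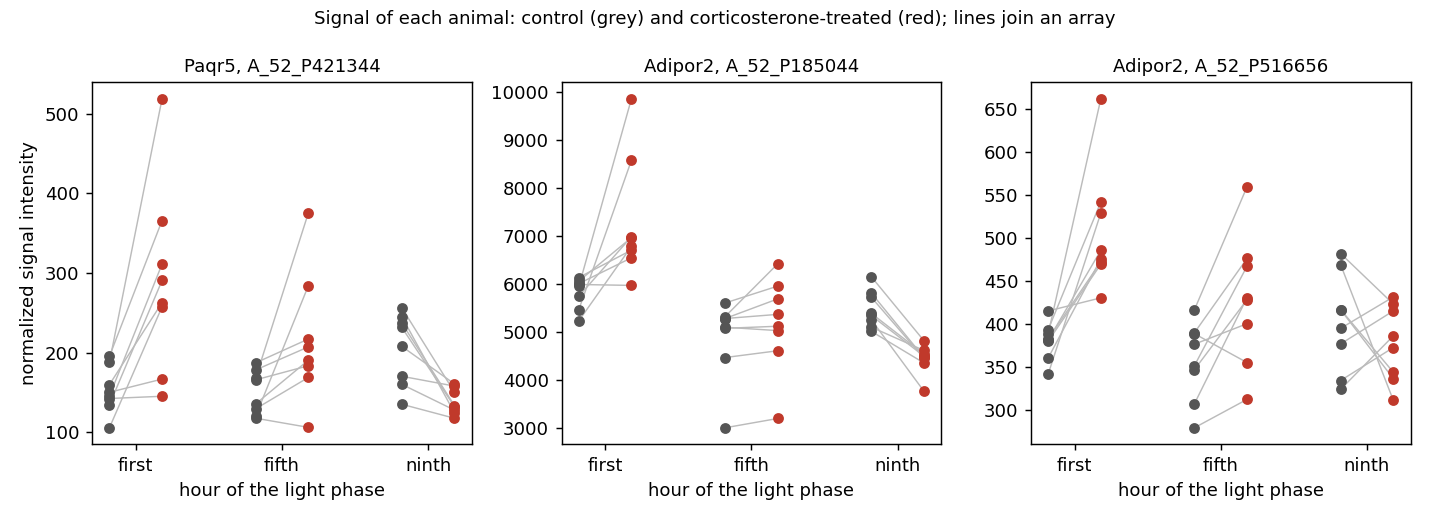
Normalized signal intensity (vertical axis, linear, arbitrary scanner units) of each animal by hour of collection, for the *Paqr5* probe and both *Adipor2* probes; grey points are control and red points treated animals, and a line joins both animals of an array. For *Paqr5* the lines rise on 8 of 8 arrays in the first hour and on 0 of 8 in the ninth.

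*Adipor2*, the adiponectin receptor best known for its link to Ppara, was the only relative with a probe that passed the test in opposite directions at different hours. In its brighter probe, A_52_P185044, the signal of the first hour ranged from 5229 to 6132 (median 5966) in control and from 5967 to 9860 (median 6872) in treated animals. All but 1 of the treated animals lay above the highest control. During the ninth hour it ranged from 5011 to 6151 (median 5363) in control and from 3762 to 4815 (median 4480) in treated animals, and the groups did not overlap. In order of the hours, its log2 fold changes were 0.31 (SE 0.0840, adjusted p = 0.0049), 0.08 (adjusted p = 0.55) and -0.30 (adjusted p = 0.0077), with the treated animal brighter on 7, 7 and 0 of 8 arrays. The difference of the effect between the ninth and the first hour, in which a dye difference cancels, was -0.61 (SE 0.119, adjusted p = 0.00092). Among treated animals alone the ninth hour differed from the first by -0.70 (adjusted p = 9.4e-07) whereas control animals gave -0.09 (adjusted p = 0.82). The fifth hour differed from the first by -0.51 (adjusted p = 0.002) among treated and by -0.27 (adjusted p = 0.56, unadjusted p = 0.0059) among control animals, and the difference of these steps, -0.23, did not pass the test (adjusted p = 1), so the step is not shown to belong to treated animals alone. Both animals of 1 fifth-hour array on slide 3 had the lowest signal of their group (2997 in the control, 3191 in the treated animal), and both enter these steps. Over 12 alternatives the step among control animals lay between -0.32 and -0.15 and never passed the test. Within each of the slides 1, 2 and 3 the mean log2 ratio was positive in the first hour (0.13, 0.31 and 0.44) and negative in the ninth (-0.37, -0.20 and -0.28). With the slide as a block, the adjusted p was 0.0071 in the first hour, 0.011 in the ninth and 0.0017 for the difference. Without slide 1, which held 4 of the 8 ninth-hour arrays, the fall of the ninth hour was -0.24 (adjusted p = 0.3) and the difference -0.61 (adjusted p = 0.14), so neither passed the test. Without slide 2 the first hour did not pass (0.31, adjusted p = 0.085), and in treated animals the step from the first to the fifth hour failed without slide 2 (-0.54, adjusted p = 0.099) and without slide 3 (-0.35, adjusted p = 0.077).

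The second *Adipor2* probe, A_52_P516656, gave another picture of the last hour. It ranged from 342 to 415 (median 382) in control and from 430 to 662 (median 480) in treated animals at first, without overlap. Its log2 fold changes were 0.41 (SE 0.0828, adjusted p = 0.00022), 0.25 (adjusted p = 0.021) and -0.09 (adjusted p = 0.51), so this probe rose during the first and the fifth hour and showed no significant fall. The difference between the ninth and the first hour was -0.49 (adjusted p = 0.012), adjusted p = 0.018 with the slide as a block, and it did not pass the test when a slide was left out (-0.30 with adjusted p = 0.48 without slide 1, -0.56 with 0.051 without slide 2 and -0.53 with 0.23 without slide 3). Without slide 1 the ninth-hour value was 0.17 in place of -0.09, and without slide 3 the fifth hour did not pass (0.19, adjusted p = 0.35). Both probes carry the same transcript identifier.

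The promoters of *Paqr5* and *Adipor2* are printed 5′ to 3′ from RefSeq (GRCm38.p6, 250 bases before to 50 after the start), with GC boxes (GGGCGG on either strand) in capitals. These 2 were picked after their log2 ratios had been seen to change sign. *Paqr5* lies on the minus strand at chr9:62026741-62027040 and *Adipor2* on the minus strand at chr6:119388685-119388984.
Paqr5: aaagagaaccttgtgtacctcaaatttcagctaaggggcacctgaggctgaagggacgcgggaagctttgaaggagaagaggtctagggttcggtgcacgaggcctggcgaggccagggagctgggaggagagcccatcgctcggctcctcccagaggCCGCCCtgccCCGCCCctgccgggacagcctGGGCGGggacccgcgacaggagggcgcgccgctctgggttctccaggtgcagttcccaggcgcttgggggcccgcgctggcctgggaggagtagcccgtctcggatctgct
Adipor2: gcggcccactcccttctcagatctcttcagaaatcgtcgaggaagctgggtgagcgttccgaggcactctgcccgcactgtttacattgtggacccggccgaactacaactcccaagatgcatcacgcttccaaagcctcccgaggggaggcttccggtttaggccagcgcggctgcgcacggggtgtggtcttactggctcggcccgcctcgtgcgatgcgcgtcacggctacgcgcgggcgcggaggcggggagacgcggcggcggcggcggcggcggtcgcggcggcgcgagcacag
The search began with the glucocorticoid response element, its core and its first 6 letters AGAACA, read on both strands, and with the cAMP response element. None of them is in either window. Of 32851 promoters of this length, 3 held the full element, 6.85% its core, 6233 its first 6 letters and 1.79% the cAMP element. The GC box and the CCAAT box were added to the search after these letters had been found absent, so they carry no weight as a choice made beforehand. The GC box occurs 3 times in the *Paqr5* window and 0 times in that of *Adipor2*, and in 35.7% of all promoters; the CCAAT box is in neither, and in 37.4% of all. Promoters of 8 of the 9 members were in the table, and *Paqr9* was not matched. In the 11 windows of these 8 genes the full element and its core were absent. AGAACA was found in *Paqr8* alone, 1 and 2 times in its 2 windows, and the cAMP element 1 time, in *Paqr3*. The GC box was in windows of all but *Adipor2*, and the CCAAT box in 1 window each of *Paqr8*, *Paqr4* and *Adipor1*.

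Over the 8 relatives, 10 of 16 probes (7 of 8 genes) differed between corticosterone-treated and control animals during the first hour, 5 higher and 5 lower, where 17.5% of all probes did, 8.79% higher and 8.74% lower. The count of genes takes in each gene with any called probe, and *Paqr3* and *Adipor1* had none but a dimmer probe called. Among all probes with a mean signal intensity of 50 or more, the share was 20.0%. During the fifth hour 6 of the 16 differed, 2 higher and 4 lower, against 18.1% of all probes (8.64% higher, 9.50% lower; 20.0% of the brighter probes). During the ninth hour 3 differed, 1 higher and 2 lower, against 13.9% (6.97% higher, 6.93% lower; 13.8% of the brighter probes). Probes of a gene share their target and are not separate observations. The median log2 fold change of the 16 probes was 0.12, 0.09 and -0.02 at these hours, and that of all probes 0.00 at each.

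**Figure D2:**
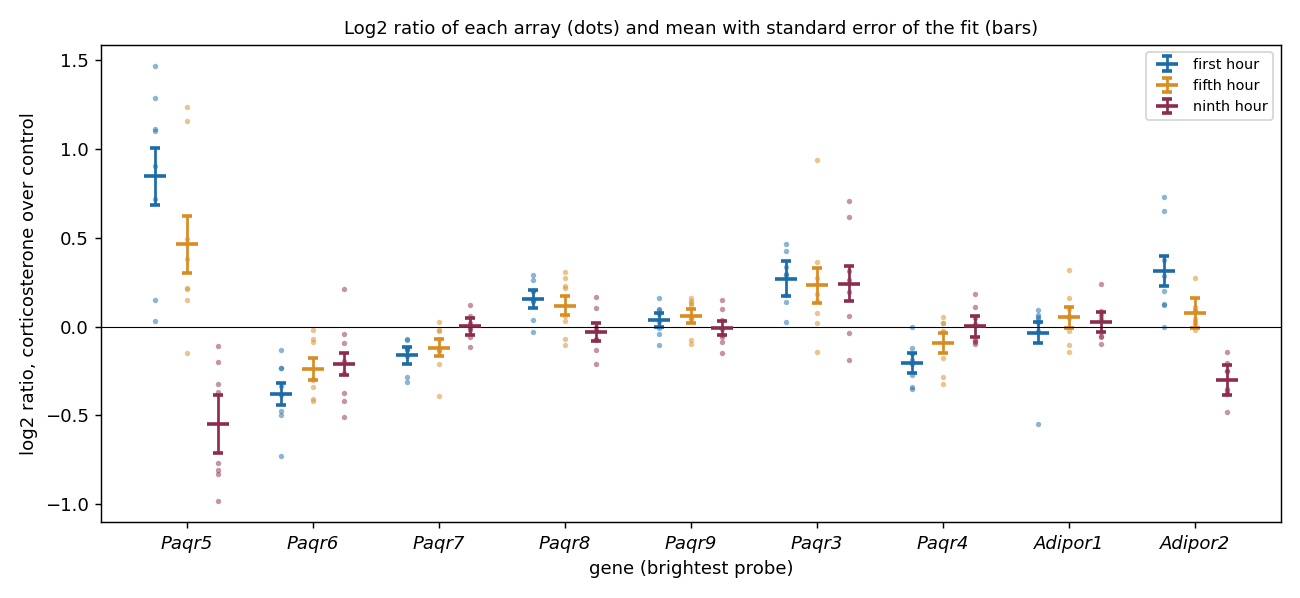
Log2 ratio of corticosterone over control (vertical axis) for the brightest probe of each of the 9 genes; dots are the 8 arrays of an hour, bars the mean with the standard error of the fit. *Paqr5* and *Adipor2* lie above 0 in the first hour (0.85 and 0.31) and below it in the ninth (-0.55 and -0.30).

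Among the other membrane progestin receptors, *Paqr6* (the delta form) was lower after corticosterone. Its brighter probe, A_55_P1971025, ranged from 1076 to 1285 (median 1200) in control and from 684 to 1092 (median 934) in treated animals of the first hour, and 7 controls lay above all treated animals. Within each hour it was lower in treated than in control animals. The log2 fold changes were -0.38 (SE 0.0619, adjusted p = 7.3e-06), -0.24 (adjusted p = 0.0027) and -0.21 (adjusted p = 0.011), lower on 8, 8 and 7 of 8 arrays. The second probe, A_55_P2148655, gave -0.18 (adjusted p = 0.04), -0.22 (adjusted p = 0.011) and -0.17 (adjusted p = 0.063). In the annotation used by the study the brighter probe also matches a pseudogene, so its signal is not assigned to *Paqr6* alone. For the brighter probe, the ninth hour did not pass the test without slide 1 (-0.16, adjusted p = 0.37) or slide 3 (-0.20, adjusted p = 0.053), nor did the fifth hour without slide 3 (-0.23, adjusted p = 0.053). For the second probe, leaving out slide 1, 2 or 3 took away the call of the first hour (adjusted p = 0.22, 0.18 and 0.059), and the fifth hour did not pass without slide 2 (adjusted p = 0.055) or slide 3 (adjusted p = 0.093). Its ninth hour differed between slides (-0.27, 0.06 and -0.18 on slides 1, 2 and 3), with -0.06 (adjusted p = 0.75) without slide 1 and -0.24, which passed the test (adjusted p = 0.038), without slide 2.

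*Paqr7*, the alpha form, ranged in its brighter probe from 6664 to 7509 (median 7144) in control and from 5647 to 6960 (median 6558) in treated animals of the first hour. Of the controls, 7 lay above all treated animals. Ordered by hour, its log2 fold changes were -0.16 (SE 0.0475, adjusted p = 0.0078), -0.12 (adjusted p = 0.048) and 0.00 (adjusted p = 1), lower on 8, 7 and 4 of 8 arrays. The call of the first hour was lost without slide 2 (-0.15, adjusted p = 0.1) or slide 3 (-0.15, adjusted p = 0.083), and that of the fifth hour under 8 of 14 alternatives, among them leaving out slide 1, 2 or 3 (adjusted p = 0.21, 0.059 and 0.26). The second *Paqr7* probe gave -0.20 (adjusted p = 0.0028), -0.17 (adjusted p = 0.009) and -0.10 (adjusted p = 0.17), with the treated animal dimmer on 8 of 8 arrays at every hour. Its first hour did not pass without slide 2 (-0.18, adjusted p = 0.052), nor did the fifth hour without slide 3 (-0.18, adjusted p = 0.11).

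*Paqr8*, the beta form, went the other way. Its signal ranged from 1259 to 1515 (median 1366) in control and from 1447 to 1660 (median 1492) in treated animals during the first hour, and 3 treated animals lay above all controls. Its log2 fold change was 0.16 at first (SE 0.0528, adjusted p = 0.023, higher on 7 of 8 arrays), then 0.12 (adjusted p = 0.093) and -0.03 (adjusted p = 0.75). Leaving out slide 1, 2 or 3 took away the first-hour call (adjusted p = 0.054, 0.081 and 0.18). The fifth hour passed under 3 alternatives, Aquantile (0.13, adjusted p = 0.031), processed signals (0.13, adjusted p = 0.032) and the authors' log2 ratios (0.14, adjusted p = 0.029), but fell to 0.07 (adjusted p = 0.52) without slide 1. *Paqr9*, the epsilon form, had log2 fold changes between -0.01 and 0.06, none of them significant (adjusted p = 0.53, 0.29 and 0.91), and its groups overlapped at every hour.

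*Paqr4*, a member of the family with a less studied role, passed the test during the first hour only. It ranged from 2219 to 2827 (median 2477) in control and from 1953 to 2392 (median 2212) in treated animals, and 5 controls lay above all treated animals. By hour, its log2 fold changes were -0.20 (SE 0.0579, adjusted p = 0.0064, lower on 8 of 8 arrays), -0.09 (adjusted p = 0.24) and 0.00 (adjusted p = 0.99), and the difference between the ninth and the first hour was 0.21 (adjusted p = 0.38). The first-hour call was lost without slide 1 (-0.18, adjusted p = 0.054) and without slide 2 (-0.18, adjusted p = 0.12).

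*Paqr3* was dim. The brightest of its 3 probes ranged from 63.8 to 83.6 (median 73.1) in control and from 72.5 to 98.4 (median 88.1) in treated animals during the first hour, brighter in the treated animal on 8 of 8 arrays, with a log2 fold change of 0.27 (SE 0.0984) that was not significant (adjusted p = 0.075). The fifth and the ninth hour gave 0.23 (adjusted p = 0.1) and 0.24 (adjusted p = 0.11), and both were highest on slide 1: on slides 1, 2 and 3 the mean log2 ratios were 0.51, 0.19 and 0.09 in the fifth hour and 0.46, 0.11 and -0.06 in the ninth. Without slide 1 they were 0.14 (adjusted p = 0.24) and 0.02 (adjusted p = 0.94). The first hour passed under 4 alternatives: processed signals of the scanner software (0.40, adjusted p = 0.005), without slide 1 (0.28, adjusted p = 0.017), probes of intensity 50 or more (0.27, adjusted p = 0.047) and the authors' log2 ratios (0.16, adjusted p = 0.048). The ninth hour passed with processed signals (0.33, adjusted p = 0.023). Of the dimmer probes, A_51_P156849 stood well above background in none of the 8 control channels and in all 8 treated channels of the first hour, which gives, between mean log2 signals, a bound of at least 1.24-fold higher after corticosterone (adjusted p = 0.025, higher on 7 of 8 arrays). The bound is open to dye bias, since all 8 treated channels also stood above background in the fifth and the ninth hour, against 1 and 3 control channels. It does not hold on slide 1, where the mean log2 ratio of 2 arrays was -0.12, against 0.39 on slide 2 and 0.55 on slide 3. The first-hour call did not pass without slide 2 (adjusted p = 0.29) or slide 3 (adjusted p = 0.37). The third probe, A_55_P2742681, is the 1 higher probe of the ninth hour (adjusted p = 0.042), but no control channel and only 1 treated channel stood above background then, so no fold is given; it did not pass without slide 1, 2 or 3 (adjusted p = 0.11, 0.11 and 0.26).

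*Adipor1*, the adiponectin receptor linked to AMP-activated kinase, had 4 probes that did not give the same result. Its brightest probe ranged from 2548 to 2785 (median 2643) in control and from 1829 to 2863 (median 2741) in treated animals during the first hour, and its log2 fold changes of -0.03, 0.05 and 0.02 were not significant (adjusted p = 0.71, 0.56 and 0.82). Of the 8 treated animals of the first hour, 2 lay above all controls and 2 below them all. The treated animal was brighter on 6 of 8 arrays then, with a median log2 ratio of 0.03, and the array of the animal with 1829 had -0.55. Over the alternatives, the value of this probe lay between -0.08 and 0.02 in the first hour and between 0.005 and 0.11 in the fifth. Probe A_52_P522097 rose during the first hour (0.19, adjusted p = 0.049, higher on 8 of 8 arrays), though not with the slide as a block (adjusted p = 0.054), without slide 2 (0.10, adjusted p = 0.51) or without slide 3 (0.21, adjusted p = 0.16). Probe A_52_P645357 rose during the fifth hour (0.19, adjusted p = 0.039, higher on 7 of 8 arrays), though not without slide 1, 2 or 3 (adjusted p = 0.2, 0.077 and 0.16). The remaining probe differed at no hour. Slides moved the values that did not pass as well: without slide 1 the ninth hour of A_52_P522097 was 0.13 (adjusted p = 0.41) in place of -0.03.

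Between hours, the effect of corticosterone on the relatives differed in 2 of 16 probes from the ninth to the first hour, both of *Adipor2*, where 0.829% of all probes did. From the first to the fifth hour limma called 0 of 16 (1 at an unadjusted p under 0.05; 0.0389% of all probes), and for the step to the ninth hour 0 of 16 (3 at an unadjusted p under 0.05; 0.0813% of all probes). In control animals 0 of 16 probes differed between the ninth and the first hour (2 at an unadjusted p under 0.05), against 0.516% of all probes. For the shorter intervals the counts in control animals were also 0 of 16 (1 and 1 at an unadjusted p under 0.05), against 0.00530% and 0.0318%. In corticosterone-treated animals, 5 of 16 probes differed between the ninth and the first hour, against 3.93% of all probes: both *Adipor2* probes and *Paqr8* (-0.22, adjusted p = 0.018) were lower, and the brighter *Paqr6* probe (0.37, adjusted p = 0.00036) and *Paqr4* (0.22, adjusted p = 0.041) higher. Among control animals the *Paqr6* probe gave 0.20 (adjusted p = 0.2, unadjusted p = 0.0046), *Paqr8* -0.03 (adjusted p = 0.9) and *Paqr4* 0.01 (adjusted p = 0.97). The difference of these steps between treated and control animals did not pass for *Paqr6* (0.17, adjusted p = 0.71), *Paqr8* (-0.19, adjusted p = 0.39) or *Paqr4* (0.21, adjusted p = 0.38), so none of the 3 is shown to belong to treated animals alone. Without slide 2 the second *Adipor2* probe (-0.39, adjusted p = 0.0522) and *Paqr8* (-0.19, adjusted p = 0.15) did not pass, the *Paqr6* probe passed by little (0.27, adjusted p = 0.0495), and without slide 1 *Paqr8* did not pass (-0.21, adjusted p = 0.32). *Paqr4* passed under 6 of 12 alternatives. It was lost with the slide as a block (0.18, adjusted p = 0.08), without slide 1 (0.17, adjusted p = 0.52), without slide 2 (0.16, adjusted p = 0.4), with Aquantile (0.21, adjusted p = 0.053), with processed signals (0.20, adjusted p = 0.091) and with offset 0 (0.22, adjusted p = 0.072). From the first to the fifth hour 1 differed, the brighter *Adipor2* probe, against 0.537%, and for the step to the ninth hour 0 of 16 (4 at an unadjusted p under 0.05), against 0.668%.

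**Figure D3:**
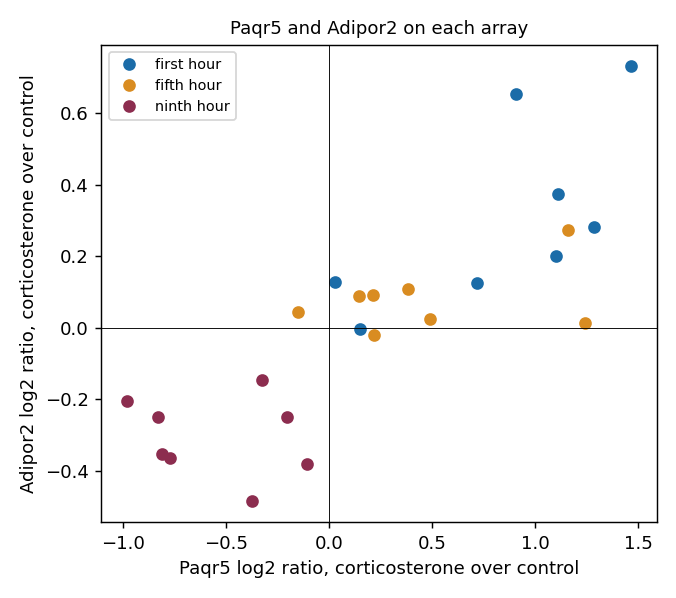
Log2 ratio of corticosterone over control of *Paqr5* (horizontal axis) and of the brighter *Adipor2* probe (vertical axis) on each of 24 arrays, colored by hour. Pearson's r is 0.82 over all arrays and 0.44 after the mean of each hour is taken out.

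Over the 24 arrays, the log2 ratio of the brighter *Adipor2* probe went with that of *Paqr5* (Pearson's r 0.82, Spearman's rho 0.81), as did *Paqr8* (r 0.71) and the second *Adipor2* probe (r 0.65), while *Paqr7* (r -0.55 for the brighter probe) and *Paqr4* (r -0.52) ran against it. The median over 22421 named probes of sufficient intensity was 0.02. The ratios of 2 genes on an array share its animals, its dyes and its hour, and with the mean of each hour taken out the values were 0.44 and 0.26 for the brighter and the second *Adipor2* probe, 0.55 for *Paqr8*, -0.15 for the brighter *Paqr7* probe and -0.14 for *Paqr4*. The second *Paqr7* probe had r -0.35 over all arrays and 0.10 with the mean of each hour taken out. Within hours, other relatives were as far from 0 as *Adipor2*: *Paqr9* had -0.46 (-0.05 over all arrays) and the brightest *Paqr3* probe 0.46 (0.29 over all arrays). The *Paqr3* probe A_51_P156849 had 0.31 within hours and 0.60 over all arrays. A first-hour array of slide 3 held the highest ratio of both *Paqr5* (1.47) and *Adipor2* (0.73). These values are a description.

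The 6 genes with the closest log2 ratios to *Paqr5* were *Atp10a*, a lipid flippase (r 0.97), *Fkbp5*, a chaperone partner of the glucocorticoid receptor (r 0.95), *Gjb6*, a connexin (r 0.94), *Cdkn1a*, a cell cycle inhibitor (r 0.93), *Map3k6*, a kinase (r 0.92), and *Tsc22d3*, a glucocorticoid-induced leucine zipper gene (r 0.92). With the mean of each hour taken out, r was between 0.80 and 0.92. By hour, *Atp10a* had log2 fold changes of 0.88, 0.56 and -0.45, and *Fkbp5* had 0.60, 0.31 and -0.27. The remaining 4 genes had positive log2 fold changes during the first and the fifth hour and values between -0.25 and 0.17 during the ninth. These genes were picked on the same arrays for their likeness to *Paqr5*, itself selected on its change of sign. No test is therefore given for this pattern in them, and their changes say nothing further about *Paqr5*.

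**Figure D4:**
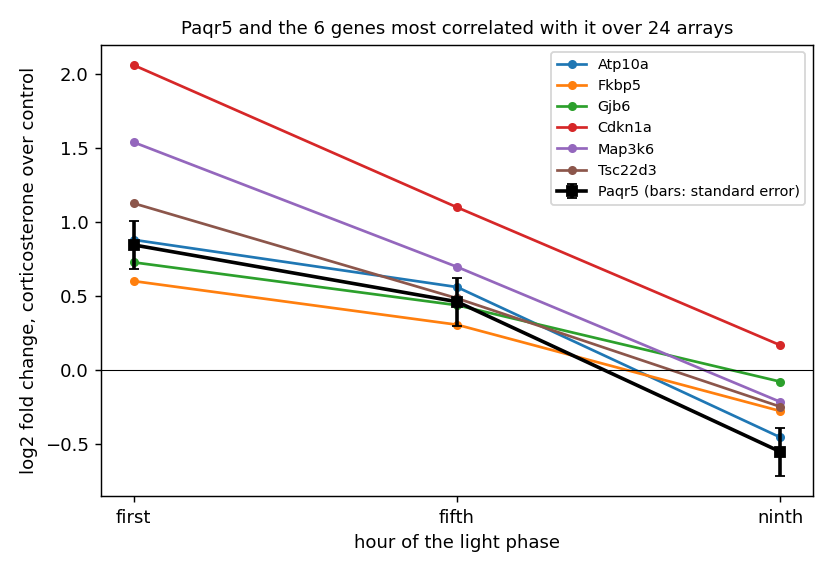
Log2 fold change of corticosterone over control (vertical axis) by hour for *Paqr5* (black, bars are the standard error of the fit) and the 6 genes most correlated with it. *Paqr5* passes from 0.85 to -0.55 and *Atp10a* from 0.88 to -0.45.

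Genes around the family were taken 1 probe per gene, and the counts stand beside the 17.5%, 18.1% and 13.9% of all probes that differed at the first, the fifth and the ninth hour. Of the remaining PAQR genes, *Mmd* and *Mmd2*, named for macrophage differentiation, 0 of 2 differed at any hour by limma. In adiponectin signalling (14 genes), 2 were higher and 4 lower during the first hour, 3 and 4 during the fifth, and 1 and 3 during the ninth, against 17.5%, 18.1% and 13.9% of all probes. *Appl2*, an adaptor of the adiponectin receptors, was lower in treated than in control animals of each hour (-0.45, -0.21 and -0.17, adjusted p = 1.3e-07, 0.0069 and 0.04). So were *Prkag2* (-0.25, -0.30 and -0.34, adjusted p = 2.5e-05, 1.6e-06 and 2.1e-07) and *Prkaa1* (-0.16, -0.22 and -0.16, adjusted p = 0.0057, 0.00016 and 0.0072), subunits of AMP-activated kinase. *Ppara* was higher after corticosterone during the first and the fifth hour (0.33 and 0.21, adjusted p = 0.0006 and 0.03). The effect differed between the ninth and the first hour in 0 of the 14 genes, against 0.829% of all probes. A shift shared by the hours cannot be told apart from a constant dye difference. The ligand *Adipoq* stood above background in no control channel and in 1, 0 and 1 treated channels by hour.

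Of 18 genes of progesterone receptors, synthesis and conversion, 3 were higher and 1 lower during the first hour, 3 and 2 during the fifth, and 3 and 0 during the ninth, where 17.5%, 18.1% and 13.9% of all probes differed (20.0%, 20.0% and 13.8% of the brighter ones). *Pgrmc1*, a membrane-associated progesterone receptor component, was higher in treated than in control animals of each hour (0.15, 0.21 and 0.20, adjusted p = 0.0065, 0.00017 and 0.00041). So was *Hsd17b10*, a steroid dehydrogenase (0.14, 0.13 and 0.19, adjusted p = 0.016, 0.018 and 0.0012). *Pgrmc2* was higher in the ninth hour (0.16, adjusted p = 0.0097). In 0 of the 18 genes did the effect differ between the ninth and the first hour, against 0.829% of all probes. Shifts shared by the hours cannot be told apart from a constant dye difference. *Hsd3b2*, which makes progesterone from pregnenolone, stood above background in no control channel and in 5 of 8 treated channels of the first hour (adjusted p = 0.00067). The mean log2 signal of all 8 treated channels lay 1.20-fold above the background floor of the control channels. As some of these treated channels were not above background, this is no strict bound, and it is also open to dye bias.

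Of 13 *Paqr3* partners in Raf and Scap signalling, 1 was higher in each hour, with 1 lower in the ninth (17.5%, 18.1% and 13.9% of all probes differed at these hours). The gene that was higher was *Insig2*, which retains Scap in the endoplasmic reticulum (0.15, 0.21 and 0.25; adjusted p = 0.0038, 7.3e-05 and 8.4e-06), and the lower one was the kinase *Braf* (-0.12, adjusted p = 0.032). *Srebf1* and *Mapk3* did not differ (adjusted p of 0.13 or more). Between the ninth and the first hour the effect differed in 0 of the 13 genes, against 0.829% of all probes. The shift of *Insig2* thus cannot be told apart from a constant dye difference. Of 7 ceramidases and sphingosine kinases only *Acer2*, an alkaline ceramidase, passed the test. Its log2 fold changes were 1.08 (adjusted p = 1.3e-08), 0.45 (adjusted p = 0.015) and -0.28 (adjusted p = 0.14), and the difference between the ninth and the first hour was significant (adjusted p = 1.2e-06). *Sphk1*, *Sphk2* and *Acer3* had adjusted p values of 0.068 or more.

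The glucocorticoid receptors and well known target genes (10 genes) had 6 higher and 3 lower during the first hour, 3 and 2 during the fifth, and 0 and 5 during the ninth, beside 17.5%, 18.1% and 13.9% of all probes. The effect differed between the ninth and the first hour in 7 of them, 6 downward, and in 0.829% of all probes. *Sgk1*, a kinase, gave 0.71, 0.00 and -0.12 (adjusted p = 5.7e-11, 0.97 and 0.25), and *Nfkbia*, an inhibitor of NF-kappa B, 0.76, -0.04 and -0.27 (adjusted p = 1.5e-10, 0.74 and 0.012). *Tsc22d3*, in another probe than the one above, gave 0.93, 0.20 and -0.58 (adjusted p = 5.8e-10, 0.15 and 3.9e-05). The glucocorticoid receptor *Nr3c1* was lower in treated than in control animals of each hour (-0.54, -0.55 and -0.18, adjusted p = 2.3e-10, 3.1e-10 and 0.018).

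Markers of the cells of the hippocampus moved in both directions, and in whole tissue a smaller number of cells and less RNA per cell cannot be told apart. During the first hour the counts higher and lower were 0 and 1 of 6 neuronal, 1 and 0 of 5 hippocampal neuron, 1 and 1 of 5 astrocyte, 2 and 2 of 6 oligodendrocyte, 0 and 0 of 3 precursor, 0 and 3 of 5 microglia and 1 and 3 of 4 endothelial markers, where 17.5% of all probes differed. In the same order, they were 3 and 0, 1 and 0, 1 and 2, 2 and 2, 0 and 0, 0 and 2, and 1 and 1 during the fifth hour (18.1% of all probes), and 2 and 0, 1 and 0, 1 and 2, 2 and 3, 0 and 1, 0 and 1, and 1 and 1 during the ninth (13.9% of all probes). Choroid plexus (6 genes), ependyma (3), meninges and fibroblasts (4) and red blood cells (2) had no marker that passed the test at any hour. Of 3 markers of the neighbouring thalamus 2 were higher in the first hour, 1 in the fifth hour and 0 in the ninth. The effect differed between the ninth and the first hour, as it did for *Adipor2*, in 2 of 4 endothelial markers (upward) and in 1 of 3 thalamic markers (downward, *Ramp3*), and in 0.829% of all probes. The summed signal of the endothelial markers, with *Flt1* the brightest, was 10136 to 12073 (median 10634) in control and 7001 to 9482 (median 7896) in treated animals during the first hour, and 8888 to 11227 (median 9781) and 8813 to 10192 (median 9242) during the ninth. That of the thalamic markers, with *Ramp3* the brightest, was 1620 to 1931 (median 1779) and 2030 to 3206 (median 2241) during the first hour, and 1653 to 2278 (median 1953) and 1616 to 2169 (median 1981) during the ninth. Their part in the values of the family was not tested.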

How the data were processed

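The authors deposited a scanner file per array with median spot and background intensities of both channels (Agilent Feature Extraction), and a table of log2 ratios of Cy5 over Cy3. The table's column medians lay between 0.00239 and 0.00889 and its columns correlated with the log2 ratios computed here at r = 0.988 to 0.997, so its direction is Cy5 over Cy3; the paper names Lowess normalization at extraction, and the table served as an alternative. In R 4.3.3 with limma 3.58.1 and statmod 1.5.0, intensities were background-corrected by normexp (offset 50 for p values, 0 for fold changes and signals), normalized by loess within and quantile between arrays. The software marked 80 to 276 outlier spots per array, which were set to missing, and 0 spots were saturated. Of the table's 24 columns, 0 were left unmapped. The 3671 control spots were dropped. The separate channel test fitted 6 groups (intraspot correlation 0.286), with Benjamini-Hochberg adjustment over 56605 probes and significance at an adjusted p under 0.05. Of these probes, 34566 were named by transcript identifier through RefSeq (GRCm38.p6), and 24570 had a mean intensity under 50. A gene is represented by its brightest probe. Where no control channel stood above background, the mean treated log2 signal, normalized by Aquantile between arrays, was set against a floor. On each array the floor was the lowest control signal marked above background, or the probe's own control signal where that was higher. From each list up to 4 genes with the smallest adjusted p were named, and the 6 genes like Paqr5 are those with the highest Pearson correlation among probes of intensity 50 or more. Members and lists were chosen with earlier results of these data known. The fit was also run on simulated data with independent noise and changes of a single size in the first hour alone. That run held no dye, slide or litter difference and did not check the difference of the effect between hours, so it does not bear on these. The number of arrays limits the precision.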

Additional observations from a re-analysis of the deposited data

Results flagged for a closer look

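The effect of corticosterone differed between the ninth and the first hour for both *Adipor2* probes, by -0.61 and -0.49 on the log2 scale. For *Paqr5* the difference was -1.40, with 8 of 8 arrays above 0 in the first and 0 of 8 in the ninth hour; it was not tested, because the gene was selected on this pattern. Of 54 groups of 8 animals (brightest probe of each gene), 6 had an animal far from the others, and chance alone flags about 1 group in 20. These were *Paqr6* in a treated animal of the first hour (684, the next 876), *Paqr9* in a treated animal of the fifth hour (1460), *Adipor1* in a treated animal of the first (1829) and another of the ninth hour (3281), and *Adipor2* in a control of the fifth hour (2997, the next 4463) and a treated animal of the ninth (3762). The treated animal on the array of that fifth-hour control was also the lowest of its group (3191, the next 4604), just short of the threshold. Some of these values share an animal or array. The treated animal with 3281 for *Adipor1* is the one with 3762 for *Adipor2*, and the one with 1829 for *Adipor1* had the highest *Paqr5* (519) and *Adipor2* (9860) of its group. The *Paqr9* value of 1460 is from the array of the *Adipor2* control with 2997.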

How the results depend on the processing

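Of 1248 values of the relatives (brightest probes; 14 alternatives for 6 comparisons and 12 for the other 6, which lie within control or within treated animals), 1156 kept sign and call, 31 lost and 9 gained significance, and 52 moved, a change of sign without significance in either setting; 0 were reversed. Of the 1156, 167 changed by over 1.5-fold, all of them values without significance; of 200 values under alternatives to a significant one, 0 did. Of 156 *Paqr5* values, not tested, 11 did. Leaving out a slide, which leaves fewer arrays, made up most of the losses. The share of all probes that passed stands in brackets. In the comparisons printed here it fell without a slide, and with processed signals it rose at the 3 hours. During the first hour, 10 member probes (17.5%) became 2 without slide 2 (7.99%) and 5 without slide 3 (9.37%). During the fifth hour, 6 (18.1%) became 3 without slide 2 (12.6%) and 0 without slide 3 (7.25%). During the ninth hour, 3 (13.9%) became 0 without slide 1 (3.18%) and 1 without slide 3 (8.70%). With processed signals the counts of the 3 hours were 13 (32.3%), 8 (29.3%) and 5 (27.3%). The 2 probes whose effect differed between the ninth and the first hour (0.829%) became 0 without slide 1 (0.221%), 1 without slide 2 (0.461%) and 1 without slide 3 (0.320%), and the difference between the ninth and the fifth hour passed the test for 1 probe with the authors' log2 ratios (0.104% in place of 0.0813%). In corticosterone-treated animals, 5 probes (ninth against first hour, 3.93%) became 3 without slide 1 (1.28%) and 2 without slide 2 (2.08%), and the 1 probe of the shorter intervals, from the first to the fifth hour (0.537%), became 0 without slide 2 (0.187%) and 0 without slide 3 (0.0972%). The cause was not tested. Without slide 1, the mean log2 ratio of *Paqr5* during the fifth hour was 0.22 in place of 0.46. With processed signals, 34.3%, 34.6% and 31.8% of the probes called in the first, the fifth and the ninth hour were higher, against 50.2%, 47.6% and 50.1%. The brightest *Paqr3* probe stood well above background in both channels of all 24 arrays. Its dimmer probes, A_51_P156849 and A_55_P2742681, did so in only 4 and 1 of 24 control channels, which limits their ratios.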
